A study of Rattus norvegicus with 8 samples.

Results

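Genes of the motile cilium, other than the axonemal dynein heavy chains, were followed in dorsal hippocampus of drug-naive rats whose fathers had taken nicotine. Of 47 listed genes, 45 had a gene-class probe set under their symbol or a renamed one (Wdr96 is now Cfap43, Wdr52 Cfap44 and Wdr78 Dnai4; Spag6 is also written Spag6l), out of 30323 gene-class probe sets in all. Where a gene had several probe sets, the one with the highest mean over the 8 arrays stood for it. Cfap69 and Cfap70 were listed but had no probe set under those symbols. The list was drawn up with the differences between these arrays already known. Its values in this comparison are therefore given as a description, without a test, and they do not support one another.

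All animals were male Sprague-Dawley rats of the first generation, sampled as young adults that had never received the drug. The nicotine-sired group (4 arrays) came from sires that self-administered nicotine intravenously at 0.03 mg/kg for 60 days. The saline-sired group (4 arrays) came from sires yoked to them that received saline. Total RNA from bilateral 1 mm3 punches was hybridised to Affymetrix arrays, each array labelled with its own litter and father. The sources used here do not say whether littermates were pooled. Markers of both main hippocampal fields were present, with 7 of 8 CA1 pyramidal cell genes and 6 of 9 dentate granule cell genes above the signal floor used below. One array, nicotine-sired 4, stood apart in markers of choroid plexus and of striatal and septal neurons, and the values without it are given where they differ by over 1.5 times.

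A motile cilium is a microtubule scaffold, the axoneme, with outer doublets in a ring around a central pair. Dynein arms on the doublets pull neighbouring doublets past each other, while radial spokes and the central pair apparatus time their activity. In the brain such cilia stand in tufts on the ependymal cells that line the ventricles and move cerebrospinal fluid; choroid plexus epithelial cells also bear tufts of cilia. Most hippocampal neurons and astrocytes have instead a single primary cilium, which as a rule lacks the dynein arms, radial spokes and central pair. The transcription factor FOXJ1 switches on motile cilia genes, and RFX factors bind X-box sequences in the promoters of ciliary genes.

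Nearly all of the motile cilia genes had a higher mean signal in nicotine-sired than in saline-sired sons. The difference was above 0 for 44 of 45, beside 45.9% of all gene-class probe sets, with a median of 0.71 log2 units, whereas the median over all gene-class probe sets was -0.016. Without nicotine-sired 4, the median was 0.57. The exception was Nme7 at -0.03, which also came out above 0 once each array was centred on its median. Every nicotine-sired array lay above every saline-sired array for 32 of the 45 genes, a pattern found in 5.21% of all gene-class probe sets and in 8.19% of those tested. In bulk tissue, more cells of a type and more RNA per cell cannot be told apart.

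A floor on signal, a mean over the 8 arrays above the gene-class median of 6.30, left 29 of the 45 genes for the fit across 15161 probe sets. By limma, 15 of those 29 were past an adjusted p of 0.05, all higher in nicotine-sired sons, where 1.18% of tested probe sets were called higher and 2.06% in either direction. They were Dnai1, Ttc25, Zmynd10, Wdr96, Wdr52, Lrrc23, Hydin, Enkur, Ak7, Akd2, Spata18, Lrrc34, Iqck, Tmem212 and Mlf1. Since the list was proposed from this same comparison, nothing is read from that share. Dnai1, Rsph1 and Akd2 were tested although their saline-sired mean was under the floor. The 16 genes under the floor were not tested, and all of them also had a higher mean in nicotine-sired sons.

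**Figure D1:**
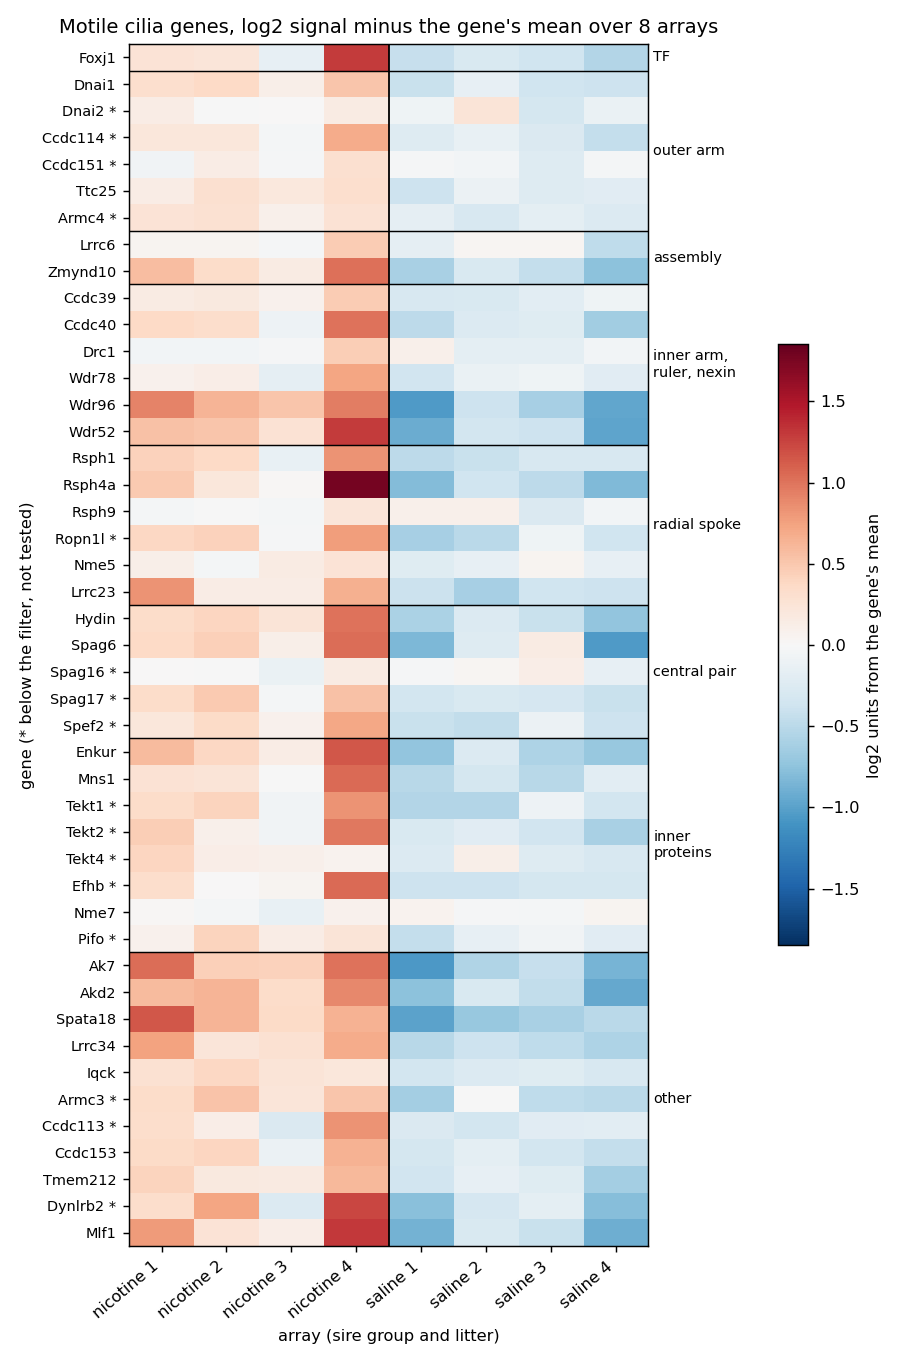
Heat map of the 45 motile cilia genes (1 per line, grouped by role) on the 8 arrays, nicotine-sired left of saline-sired. Colour gives the log2 signal minus the gene's mean over the 8 arrays. Nicotine-sired 4 held the highest value for 35 genes, and the saline-sired columns lie below the mean for nearly all of them.

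Promoter letters are shown for some genes that carried a motif and whose differences span the list, because genes that move together may carry shared motifs. RefSeq promoters of the GRCr8 assembly, which reach 250 bases before and 50 after the start, were at hand for 33 of the 45 genes, matched by gene ID. The X-box, an inverted repeat bound by RFX factors, was in 2 of these (6.06%) and in 0.488% of 27457 genes with a promoter in the table. A relaxed X-box, with 1 more of its letters left free, was looked for after the sequences had been read. It was in 7 (21.2%) and in 0.798% of all. The arm of that repeat on its own, GTTGCC, which overlaps many of those matches, was in 17 (51.5%) against 13.1%. Other ciliary lists, described below, also carried that arm. It was in 41.4% of other axonemal, 41.7% of dynein preassembly, 44% of intraflagellar transport and 33.3% of primary cilium promoters. The full X-box was in 1.72%, 25%, 0% and 9.09% of these lists, in that order, and the relaxed X-box in 5.17%, 25%, 0% and 9.09%. The forkhead core TGTTTAC was in 4 (12.1%) against 4.13%, and in 10.3%, 0%, 4% and 0% of the other ciliary lists in the same order. Both strands were searched, and a match is a string of letters, not a bound site. At least 1 of these motifs was in 20 of the 33 genes, and only promoters with a match are printed. The 170 bases before the start are given 5′ to 3′ on the gene's own strand, with matches in capitals.
Wdr52, chr11:69789906-69790075, minus strand: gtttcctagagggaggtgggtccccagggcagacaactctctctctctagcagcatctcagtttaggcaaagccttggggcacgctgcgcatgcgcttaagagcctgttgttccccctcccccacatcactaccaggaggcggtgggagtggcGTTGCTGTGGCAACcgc
Hydin, chr19:55146296-55146465, plus strand: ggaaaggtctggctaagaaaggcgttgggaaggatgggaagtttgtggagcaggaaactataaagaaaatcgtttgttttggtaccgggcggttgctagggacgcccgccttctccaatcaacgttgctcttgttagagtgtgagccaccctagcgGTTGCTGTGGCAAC
Nme7, chr13:79190411-79190580, plus strand: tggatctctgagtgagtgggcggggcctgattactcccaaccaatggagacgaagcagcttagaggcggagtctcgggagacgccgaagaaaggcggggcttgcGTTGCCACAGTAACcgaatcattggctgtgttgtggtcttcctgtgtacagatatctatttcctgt
Ccdc151, chr8:28810512-28810681, minus strand: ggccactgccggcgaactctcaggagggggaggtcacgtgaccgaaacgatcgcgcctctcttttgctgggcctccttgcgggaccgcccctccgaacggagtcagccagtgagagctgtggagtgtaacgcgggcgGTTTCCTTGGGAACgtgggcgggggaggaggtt
Efhb, chr9:6678268-6678437, minus strand: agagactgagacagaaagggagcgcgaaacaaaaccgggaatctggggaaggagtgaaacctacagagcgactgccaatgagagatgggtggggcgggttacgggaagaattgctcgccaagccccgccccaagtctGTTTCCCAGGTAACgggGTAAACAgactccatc
Wdr96, chr1:256653703-256653872, minus strand: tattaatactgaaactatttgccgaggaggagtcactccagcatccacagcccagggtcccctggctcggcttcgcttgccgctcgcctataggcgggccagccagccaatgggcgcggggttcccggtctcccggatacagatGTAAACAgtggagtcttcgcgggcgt
Mlf1, chr2:153958421-153958590, plus strand: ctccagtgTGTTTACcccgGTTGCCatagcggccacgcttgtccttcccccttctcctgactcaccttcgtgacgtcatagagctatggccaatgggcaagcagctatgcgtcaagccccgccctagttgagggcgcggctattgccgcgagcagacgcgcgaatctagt
Lrrc23, chr4:159277765-159277934, minus strand: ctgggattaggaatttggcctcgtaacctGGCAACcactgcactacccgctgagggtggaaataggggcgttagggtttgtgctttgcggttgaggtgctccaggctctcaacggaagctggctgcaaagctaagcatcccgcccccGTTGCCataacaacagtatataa
Wdr52 and Hydin, both among the 15, carried the same letters, GTTGCTGTGGCAAC, beginning 17 and 14 bases before the start. Nme7, whose mean was not higher in nicotine-sired sons, carried GTTGCCACAGTAAC 66 bases before its start. Ccdc151 and Efhb were the genes with the full X-box, both 33 bases before the start. Efhb also had the forkhead core, as did Wdr96 before the annotated start shown. In Mlf1 and Lrrc23 the capitals mark the single arm, and in Mlf1 also the forkhead core. Of the 15, Dnai1, Zmynd10, Ak7, Spata18, Lrrc34, Iqck and Tmem212 had a promoter in the table with no match in that window.

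Foxj1, the master transcription factor of motile cilia, read 7.75, 7.72, 7.35 and 8.79 log2 units on nicotine-sired arrays 1 to 4 and 7.07, 7.21, 7.12 and 6.95 on saline-sired arrays 1 to 4. The groups did not overlap, and nicotine-sired 4 stood more than 1 unit above the rest. The difference was 0.81 ± 0.26 (fit SE), and Foxj1 was not among the 15. Without nicotine-sired 4 it was 0.52 ± 0.12, and Foxj1 was then among 20 genes past the threshold.

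Outer dynein arms power the beat, and a docking complex fixes them to the doublet. All 6 genes of these structures were higher in nicotine-sired sons, and both of those tested, Dnai1 and Ttc25, were among the 15. Dnai1, an intermediate chain of the arm, read 6.69, 6.75, 6.49 and 6.89 in nicotine-sired sons against 5.97, 6.22, 6.01 and 6.0 in saline-sired sons, a difference of 0.66 ± 0.10. Ttc25, a docking subunit, read 6.77, 6.93, 6.82 and 6.94 against 6.25, 6.52, 6.40 and 6.42, a difference of 0.47 ± 0.09. In both genes the lowest nicotine-sired array was above the highest saline-sired one. Dnai2, the partner of Dnai1 in the same arm, was dim and overlapped, with 4.96, 4.82, 4.84 and 4.98 in nicotine-sired sons and 4.74, 5.06, 4.50 and 4.71 in saline-sired sons. The other docking subunits, Ccdc114, Ccdc151 and Armc4, were all under the floor, with differences of 0.54, 0.17 and 0.45. Without nicotine-sired 4 that of Ccdc151 was 0.10.

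Arms are assembled in the cytoplasm before they enter the cilium, a step that needs Zmynd10 and Lrrc6. Zmynd10 read 7.95, 7.72, 7.52 and 8.40 in nicotine-sired sons and 6.77, 7.10, 6.93 and 6.61 in saline-sired sons, a difference of 1.04 ± 0.18. Lrrc6 read 7.12, 7.13, 7.06 and 7.55 against 6.91, 7.11, 7.11 and 6.61, a difference of 0.28 ± 0.14. The groups were apart for Zmynd10 and overlapped for Lrrc6, whose difference was 0.17 without nicotine-sired 4 and also 0.17 without saline-sired 4.

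Genes of the inner arms, of the Ccdc39 and Ccdc40 ruler that spaces arms and spokes along the doublet, and of the nexin-dynein regulatory complex were all higher, 6 of 6. Wdr96 and Wdr52 form the tether of an inner arm dynein, and mice lacking either have defective sperm flagella. Wdr96 read 8.65, 8.36, 8.24 and 8.67 in nicotine-sired sons and 6.68, 7.34, 7.12 and 6.76 in saline-sired sons. Its difference, 1.50 ± 0.16, was the largest of the 45 and equals 2.83-fold. Its partner Wdr52 differed by 1.31 ± 0.23. Wdr78, an inner arm intermediate chain, read 8.41, 8.46, 8.16 and 9.06 against 7.97, 8.21, 8.25 and 8.12, with nicotine-sired 3 inside the saline-sired range. Its difference of 0.39 ± 0.17 was 0.21 without nicotine-sired 4. Drc1, a scaffold of the regulatory complex, read 6.80, 6.81, 6.84 and 7.31 against 6.95, 6.67, 6.67 and 6.80. Its difference of 0.17 ± 0.13 was 0.05 without nicotine-sired 4. Ccdc39 and Ccdc40 differed by 0.43 ± 0.10 and 0.80 ± 0.21, each with no overlap between groups.

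Radial spokes reach inward from the doublets, and Rsph1, Rsph4a and Rsph9 form their heads. The 3 heads differed in size: 0.74 ± 0.18 for Rsph1, 1.23 ± 0.33 for Rsph4a and 0.07 ± 0.11 for Rsph9. Rsph4a read 7.74, 7.47, 7.28 and 9.03 in nicotine-sired sons against 6.46, 6.89, 6.78 and 6.44 in saline-sired sons. Array 4 was far the highest, yet the other nicotine-sired arrays were also above every saline-sired array. Without that array Rsph4a differed by 0.85. Ropn1l and Nme5, further spoke genes, differed by 0.78 and by 0.24 ± 0.09, the first under the floor. Rsph9 overlapped, at 6.85, 6.88, 6.86 and 7.12 against 6.99, 6.98, 6.62 and 6.84, and its difference was 0.00 without nicotine-sired 4. Lrrc23, a spoke protein needed for sperm movement in mice, was the spoke gene among the 15. It read 8.83, 8.14, 8.14 and 8.66 against 7.61, 7.39, 7.64 and 7.62, a difference of 0.88 ± 0.16.

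The central pair apparatus sets the bend of the cilium, and mice without Hydin develop hydrocephalus. Hydin read 7.71, 7.76, 7.60 and 8.37 in nicotine-sired sons and 6.78, 7.11, 6.96 and 6.63 in saline-sired sons, 0.99 ± 0.17 or 1.99-fold. Spag6 had a difference of the same size but more spread. Its values were 9.23, 9.30, 8.97 and 9.89 against 8.02, 8.62, 9.0 and 7.81, with nicotine-sired 3 just under saline-sired 3. A near-identical relative shares the Spag6 name in the rat, and a dim probe set annotated to both differed by -0.02, so the level of each copy is uncertain. Spag16 was dim on both of its probe sets. The one used read 4.83, 4.81, 4.69 and 4.97 against 4.79, 4.86, 4.94 and 4.66, a difference of 0.01 that was -0.04 without nicotine-sired 4. Spag17 and Spef2 were under the floor, with differences of 0.67 and 0.69 and no overlap. The probe set annotated to Ttc18, the former name of Cfap70, is not counted among the 45; it differed by -0.15 (adjusted p = 0.362 by limma).

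Microtubule inner proteins stiffen the doublets from inside their lumen. Of 8 such genes, 7 were higher. Enkur read 9.01, 8.81, 8.57 and 9.58 in nicotine-sired sons and 7.70, 8.18, 7.86 and 7.73 in saline-sired sons, a difference of 1.12 ± 0.20 or 2.18-fold. Nme7 showed no such gap. It read 9.22, 9.16, 9.06 and 9.27 against 9.25, 9.17, 9.16 and 9.24, a difference of -0.03 ± 0.06. NME7 also belongs to the gamma-tubulin ring complex of all cells, where microtubules are seeded. Mns1 differed by 0.78 ± 0.20. Tekt1, Tekt2, Tekt4, Efhb and Pifo, all under the floor, differed by 0.76, 0.72, 0.33, 0.71 and 0.43.

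The other 11 genes, less tied to one structure, were all higher, and 7 of the 8 tested were among the 15. Ak7, an adenylate kinase of cilia, read 8.50, 7.92, 7.90 and 8.48 in nicotine-sired sons and 6.41, 6.92, 7.05 and 6.61 in saline-sired sons, 1.45 ± 0.19 or 2.74-fold. Spata18, named for its place in sperm and known for mitochondrial quality control, differed by 1.39 ± 0.16. Iqck had a smaller difference with little spread within either group, at 8.51, 8.61, 8.46 and 8.43 against 7.89, 7.98, 8.0 and 7.93, or 0.55 ± 0.07. In Iqck, as in Tekt4, nicotine-sired 4 was the lowest of its group. Ccdc113 read 6.39, 6.19, 5.80 and 6.89 against 5.79, 5.73, 5.85 and 5.87, with nicotine-sired 3 inside the saline-sired values and a difference of 0.51 that was 0.32 without nicotine-sired 4. Mlf1 and Akd2 differed by 1.24 ± 0.26 and 1.23 ± 0.16, Lrrc34 by 0.97 ± 0.13, Tmem212 by 0.68 ± 0.13 and Ccdc153 by 0.65 ± 0.14. Armc3 and Dynlrb2, a light chain of dyneins, were under the floor and differed by 0.81 and 1.03.

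**Figure D2:**
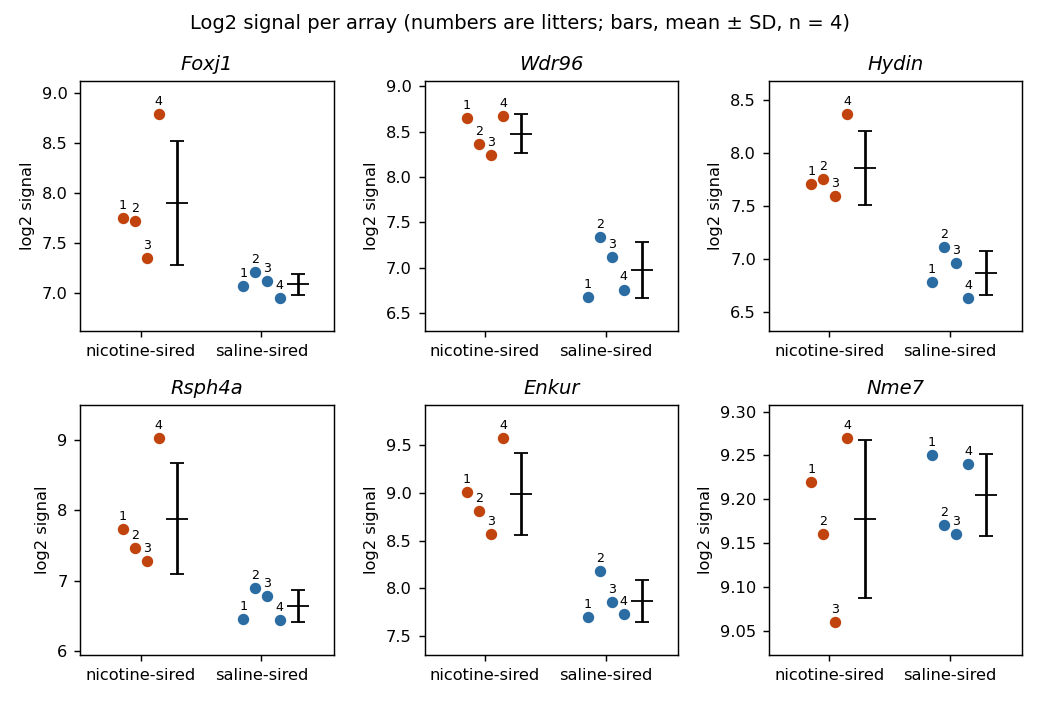
Log2 signal of named motile cilia genes on each array, nicotine-sired points left of saline-sired points, with the mean and SD of 4 arrays. Wdr96, Hydin and Enkur show separate groups, Nme7 shows none, and Foxj1 and Rsph4a show nicotine-sired 4 well above its group.

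Within each group the genes also shared their high and low arrays. Taken as the mean over the 45 genes of each value minus that gene's own mean, the level was 0.36, 0.28, 0.07 and 0.71 on nicotine-sired arrays 1 to 4 and -0.45, -0.24, -0.27 and -0.45 on saline-sired arrays 1 to 4. Nicotine-sired 4 was the highest of its group for 36 of the 45 genes, and nicotine-sired 3 the lowest for 34. Saline-sired 1 and saline-sired 4 held the lowest value of all arrays for 16 and 19 genes. The levels of the groups did not overlap, a direction that the choice of genes fixes.

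Nicotine-sired 4 also stood apart in other tissue markers. The level of 19 choroid plexus genes was 3.08 on that array and between -0.68 and 0.18 on all others. Ttr, the transthyretin gene that choroid plexus epithelium makes in bulk, read 5.61, 5.54, 5.86 and 13.07 in nicotine-sired sons and 10.55, 8.08, 6.20 and 5.74 in saline-sired sons. Among choroid plexus genes 18 of 19 had a higher nicotine-sired mean, and Ttr was the exception at -0.12. Their median difference was 0.70, which was -0.24 without nicotine-sired 4. The motile cilia genes had a median of 0.57 without it, with 43 of 45 higher. With the choroid plexus level as a covariate their median was 0.62 and 22 of 29 were past the threshold. Saline-sired 1 had the second highest Ttr value and one of the lowest motile cilia levels. The part of choroid plexus content in the motile cilia difference was not tested beyond these values. Striatal and septal neuron markers were likewise high on nicotine-sired 4, at 2.29.

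**Figure D3:**
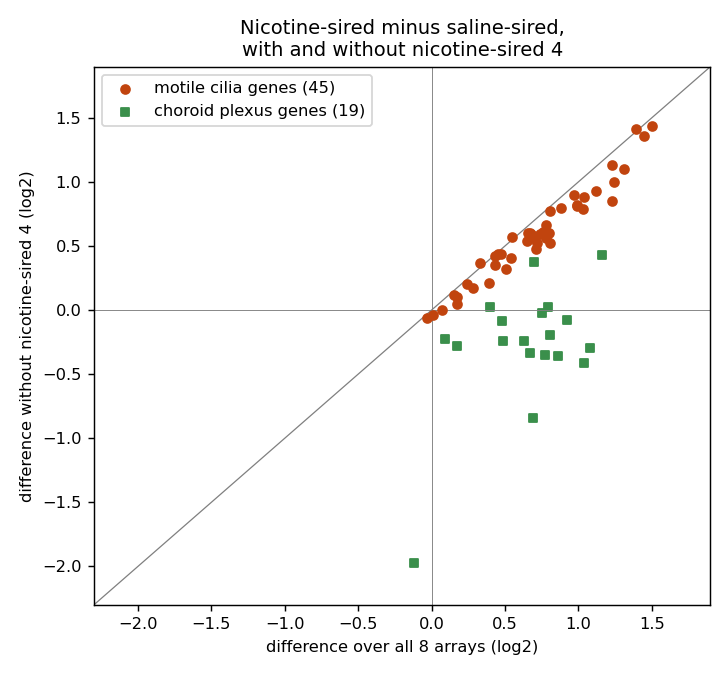
Difference of each motile cilia gene with all 8 arrays and with nicotine-sired 4 left out, in log2 units, nicotine-sired minus saline-sired, with 19 choroid plexus genes as squares and the diagonal as a line. The motile cilia median was 0.71 with all arrays and 0.57 without that array, and the choroid plexus median was 0.70 with all arrays and -0.24 without it.

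Ependymal markers that are not part of the axoneme were less uniform. Vim, the intermediate filament vimentin, rose by 0.79 ± 0.13 log2 units (adjusted p = 0.029 by limma), with 11.38, 11.11, 11.13 and 11.64 in nicotine-sired sons and 10.61, 10.60, 10.62 and 10.27 in saline-sired sons. That call was lost without nicotine-sired 1, without each saline-sired array in turn and with the CA1 marker level as a covariate, while the difference stayed between 0.69 and 0.86 with 1 array left out. S100b, a calcium-binding protein of ependyma and astrocytes, differed by 0.18 ± 0.05 (adjusted p = 0.0815). Of the 6 such genes tested, Vim was the 1 past the threshold, where 1.18% of all tested probe sets were called higher. Of 8 such genes measured, 6 had a higher mean. Their level ran from 0.04 to 0.17 in nicotine-sired sons and from -0.22 to -0.05 in saline-sired sons.

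Markers of hippocampal subfields were uneven between the groups as well. The level of 8 CA1 pyramidal cell markers was 1.63, 0.54, 1.15 and -0.04 on nicotine-sired arrays and -0.99, -0.68, -1.58 and -0.03 on saline-sired arrays, and 7 of 8 had a higher nicotine-sired mean, with a median difference of 1.80. By limma 1 of 7 tested was past the adjusted threshold, 7 without nicotine-sired 4 and 0 without nicotine-sired 1 or 3 or saline-sired 1, 2 or 3. With all arrays there were 7 at an unadjusted p under 0.05 and 7 by the authors' deposited p-values. All 9 dentate granule cell markers had a lower nicotine-sired mean, although 0 of 6 tested passed by limma. Of those 6, 5 had an unadjusted p under 0.05 and 4 passed by the authors' deposited p-values. Among all 15161 tested probe sets, 3638 had an unadjusted p under 0.05 in either direction. In that set 13.9% were higher at that p and 13.6% passed by the authors' p-values. With the CA1 level as a covariate the motile cilia genes had a median difference of 0.94, their standard errors grew 1.65-fold at the median among the 15, and 0 of 29 passed by limma, with 26 at an unadjusted p under 0.05. The part of CA1 content in the motile cilia difference was not tested beyond that.

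**Figure D4:**
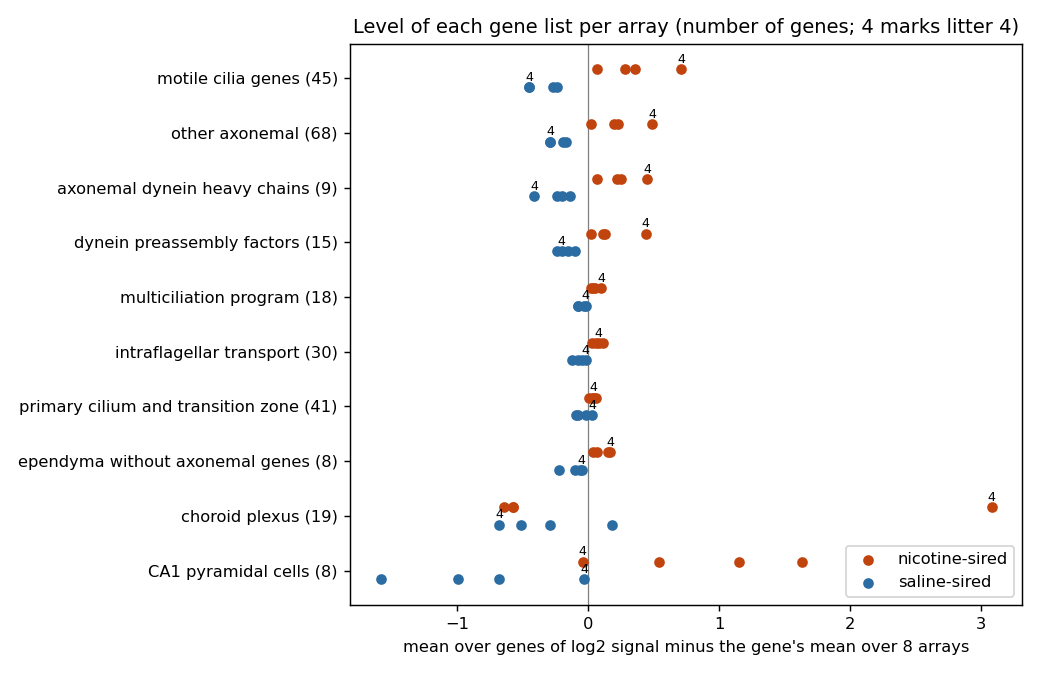
Level of each gene list on the 8 arrays, in log2 units from each gene's mean, nicotine-sired points above saline-sired points within a list. Motile cilia genes run from 0.07 to 0.71 in nicotine-sired sons and from -0.45 to -0.24 in saline-sired sons, and choroid plexus genes reach 3.08 on array 4.

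Axonemal genes outside the list were mostly higher as well. They were chosen by known function with earlier results of these data known, so they are no independent test. Of 68 measured, 64 had a higher nicotine-sired mean, with a median difference of 0.43, and 16 of 42 tested rose while 0 fell (limma, 33 higher and 0 lower at an unadjusted p under 0.05). Over all tested probe sets, 1.18% were called higher by limma and 13.9% were higher at an unadjusted p under 0.05. Of the 42, 5 had a saline-sired mean under the floor and so were tested through their nicotine-sired signal. Cfap91, a spoke-base protein and 1 of those 5, rose by 0.77 ± 0.11 (adjusted p = 0.0251). Tcte1, a subunit of the regulatory complex, rose by 0.60 ± 0.09 (adjusted p = 0.0254), and Cfap161, a microtubule inner protein, by 0.83 ± 0.14 (adjusted p = 0.031). These 3 had the smallest p of their list. All 3 calls were lost without each saline-sired array in turn, and those of Tcte1 and Cfap161 also without nicotine-sired 1. Among the 9 dynein heavy chains measured, 8 were higher, with a median of 0.64, and 1 was lower with no overlap between groups. Of the 5 tested, 1 passed by limma, and 4 were higher at an unadjusted p under 0.05. The saline-sired mean was under the floor for 3 of those 5, which were tested through their nicotine-sired signal. Dnah6, an inner arm motor, rose by 1.19 ± 0.15 (adjusted p = 0.0196). Its saline-sired mean of 6.08 was under the floor, and its call was lost without saline-sired 1 and without saline-sired 3. Dnah5 and Dnah11, outer arm motors, differed by 0.69 ± 0.17 and 0.64 ± 0.16 (adjusted p = 0.0654 and 0.0652), and Dnah11 passed without nicotine-sired 4.

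The machinery that assembles cilia, and the genes of primary cilia, had smaller median differences. All 15 dynein preassembly factors had a higher nicotine-sired mean, with a median of 0.30, and 0 of 11 tested passed by limma, with 6 at an unadjusted p under 0.05 and 2 by the authors' deposited p-values after adjustment, by which 13.6% of all tested probe sets passed. Without nicotine-sired 4 the median was 0.17, with 14 of 15 higher and 1 past the threshold. The nearest were Dnaaf1 (0.38 ± 0.10, adjusted p = 0.0678) and Dnaaf5 (0.36 ± 0.09, adjusted p = 0.0735). Dnaaf1 had a saline-sired mean under the floor, so it was tested through its nicotine-sired signal. Intraflagellar transport genes, which carry cargo along every cilium, were higher for 26 of 30 with a median of 0.11. None of the 30 passed by limma, with 12 at an unadjusted p under 0.05 and 7 by the authors' deposited p-values, and Ift54 was closest (0.36 ± 0.08, adjusted p = 0.0501). Without nicotine-sired 4, 1 passed, Ift74. Primary cilium and transition zone genes had a median of 0.07 with 27 of 41 higher. None of 37 tested passed, with 7 higher and 2 lower at an unadjusted p under 0.05 and 7 by the authors' deposited p-values, a share near the 13.9% and 13.6% of all tested probe sets. Their median was 0.03 without nicotine-sired 4 and 0.03 without saline-sired 2. Gpr161 passed without nicotine-sired 4, and Sstr3 without nicotine-sired 2. Sstr3, the somatostatin receptor of neuronal primary cilia, differed by -0.45 ± 0.14 (adjusted p = 0.103). Whether these lists differ from the motile cilia genes was not tested.

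The programme that makes a cell multiciliated gave 1 call in 12 tested, where 1.18% of all tested probe sets were called higher. Of 18 measured genes, 13 had a higher mean, with a median of 0.11. At an unadjusted p under 0.05 by limma, 3 of the 12 were higher and 2 lower, and 4 passed by the authors' deposited p-values. Over all tested probe sets, 13.9% were higher at an unadjusted p under 0.05 and 13.6% passed by the authors' p-values. Myb, a transcription factor that acts early in that programme in mice, rose by 0.75 ± 0.15 (adjusted p = 0.043). It read 7.12, 6.67, 6.47 and 6.75 in nicotine-sired sons and 5.74, 6.01, 6.24 and 6.02 in saline-sired sons, so the groups did not overlap. Its saline-sired mean was under the floor, so it was tested through its nicotine-sired signal. The call was lost without nicotine-sired 1, without nicotine-sired 3, without each saline-sired array in turn and with the CA1 covariate, with differences of 0.63 to 0.84 when 1 array was left out. Mcidas, a coregulator near the top of the programme, had the opposite sign at -0.29 ± 0.10 (adjusted p = 0.113). So did Rfx3, an RFX factor and the brightest gene of the list (mean 10.45), at -0.51 ± 0.22 (adjusted p = 0.195 by limma). Its groups overlapped, and it passed by the authors' deposited p-values. The other RFX genes, Rfx1, Rfx2 and Rfx4, differed by 0.05, 0.09 and 0.21.

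**Figure D5:**
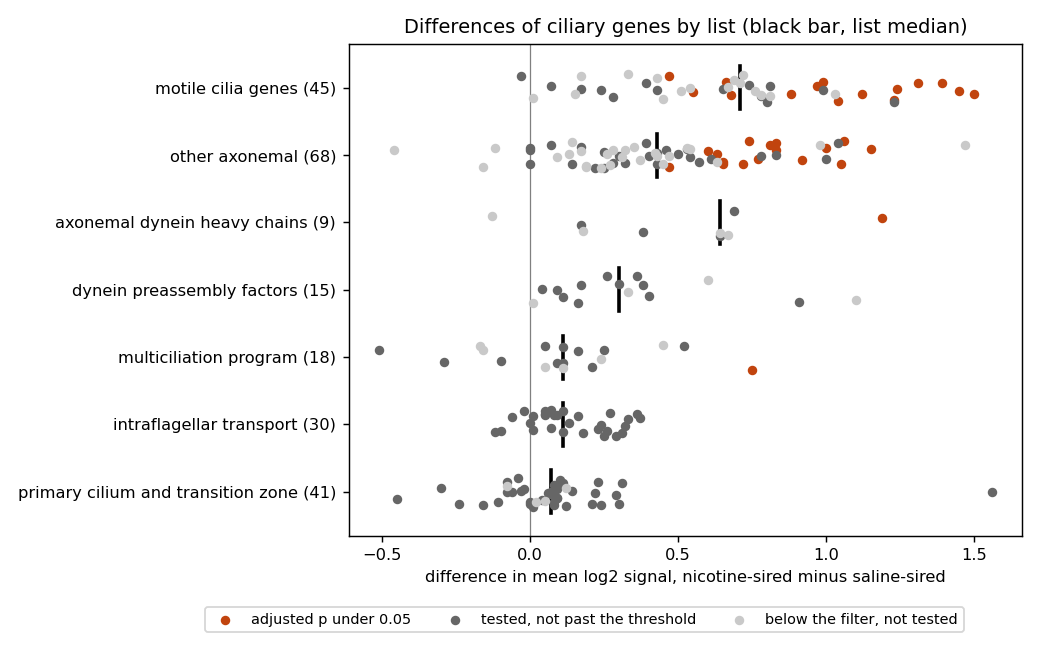
Difference in mean log2 signal, nicotine-sired minus saline-sired, for each gene (points) of 7 ciliary lists, with the list median as a black bar and colour by test result. Medians are 0.71 for motile cilia genes, 0.64 for dynein heavy chains, 0.43 for other axonemal genes and 0.07 for primary cilium genes.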

How the data were processed

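Log2 signals per probe set were deposited by the authors for 36685 probe sets on 8 Affymetrix arrays, and a second deposited table repeats them exactly. Per the submitters' processing notes MAS5 was used. The sources used here do not name the summary, the normalization or the array model. The p-values used for comparison are those the authors deposited, per the file headers, and their model is not given. The 6362 control probe sets were left out.

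The values were log2 already, so no pseudocount was added. Probe sets whose mean over the 8 arrays was above 6.30, the gene-class median, were kept (15161). limma 3.58.1 in R 4.3.3 (lmFit, eBayes with a trend, two-sided) compared nicotine-sired with saline-sired sons, and p-values were adjusted by Benjamini-Hochberg over those 15161, with 0.05 as the threshold. Errors after differences are its SE with 4 arrays per group. Arrays carry no depth, so their number limits the precision. The fit was tested on simulated data.

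The genes, lists and tests were chosen with earlier results of these data known. Genes were matched by symbol, other lists by gene ID to RefSeq GRCr8. Array values were given for Foxj1 and, per role, for the gene with the highest mean, the highest and the lowest difference; in other ciliary lists the 3 with the smallest p were eligible, and in the choroid plexus and ependyma lists the 2 brightest. Ttr and other values outside that rule were chosen after they were seen. Alternatives covered normalization, filters, a pseudocount of 32 on linear values, array weights, the trend, marker covariates, the litter block and each array left out. Correlations of deviations between same-numbered litters of the groups were -0.141, 0.181, -0.052 and -0.168. They cannot show whether same-numbered litters came from yoked sires.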

Additional observations from a re-analysis of the deposited data

Results flagged for a closer look

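Values that stood far from the other 3 arrays of their group, by Dixon's criterion for 4 values, were found in 10 of 122 groups examined, where chance gives 6.1 at 1 in 20. On nicotine-sired 4 these were the high values of Lrrc6 (7.55), Drc1 (7.31) and Rsph9 (7.12), the choroid plexus level (3.08) and the striatal and septal neuron level (2.29). On nicotine-sired 3 it was a low Armc4 (5.63). On saline-sired 2 these were high Dnai1 (6.22), high Tekt4 (6.22) and low Lrrc23 (7.39). On saline-sired 3 it was a low Ccdc151 (5.84). Leaving out nicotine-sired 4 lowered the difference of Lrrc6 to 0.17, as did leaving out saline-sired 4 (0.17).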

How the results depend on the processing

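The 15 called motile cilia genes stayed higher in nicotine-sired sons under every alternative run. Of the verdicts on named motile cilia genes, where the gene was tested, 228 stayed on their side of the threshold, 57 lost it and 4 gained it. All 57 losses fell on genes past the threshold in the main fit. The 228 also count genes that were not past it, such as Foxj1 and Nme7, so they overstate how firmly the calls held. Dnai2, Spag16 and Ccdc113 were not tested. The count of motile cilia genes past an adjusted p of 0.05 (15) did not hold as firmly. It was 6 with the stricter filter, where 12 were tested, and 0 with the CA1 covariate. Leaving out 1 array gave 0 to 20: 6 without nicotine-sired 1, 0 without saline-sired 1, 2 without saline-sired 2, 0 without saline-sired 3 and 6 without saline-sired 4, while 23 to 24 of 29 had an unadjusted p under 0.05. The 15 were higher with an unadjusted p under 0.05 in each fit that left out 1 array. The median over all 45 motile cilia genes (0.71) was 0.50 with the pseudocount of 32, 0.94 with the CA1 covariate and 0.57 to 0.81 with 1 array left out. For the other axonemal genes the count of 16 was 5 with the stricter filter and 0 with the CA1 covariate, whose median was 0.73 in place of 0.43. It was 0 to 19 with 1 array left out: 1 without nicotine-sired 1 and 0 without each saline-sired array, with 30 to 34 of 42 at an unadjusted p under 0.05. Over all probe sets the count of 313 was 155 with no filter, 1201 with array weights, 929 with the choroid plexus covariate, 0 with the CA1 covariate (1375 at an unadjusted p under 0.05), 0 to 737 with 1 array left out and 2062 by the authors' deposited p-values. The litter number as a replicate block left 0 motile cilia genes, 0 other axonemal genes and 0 probe sets past the threshold by limma, although 24 motile cilia genes and 3326 probe sets had an unadjusted p under 0.05; the 15 had adjusted p-values of 0.0907 to 0.116. Whether litters with the same number were matched is not known here. The causes of these shifts were not tested. Signals under the floor, the authors' unstated normalization and 4 arrays per group limit all values.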

Other observations

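Gpr161, a receptor of primary cilia that dampens hedgehog signalling, had the largest difference of the primary cilium list, 1.56 ± 0.46 (adjusted p = 0.0936 by limma). It read 10.28, 9.29, 9.71 and 8.17 in nicotine-sired sons and 7.60, 8.09, 6.92 and 8.58 in saline-sired sons. Its highest and lowest arrays, nicotine-sired 1 and saline-sired 3, were also those of the CA1 marker level (1.63 and -1.58). With that level as a covariate its difference was -0.34 (adjusted p = 0.618 by limma), in a fit where 0 probe sets passed. The part of CA1 content in the Gpr161 difference was not tested. Gli3, a transcription factor of the same pathway, differed by 0.31 ± 0.08 (adjusted p = 0.0787) with no overlap between groups. Sass6, which templates new centrioles, differed by 0.52 ± 0.13 (adjusted p = 0.0692), also with no overlap. The saline-sired mean of Sass6 was under the floor, so it was tested through its nicotine-sired signal. Myelin-forming oligodendrocyte markers had a higher nicotine-sired mean for 9 of 9, with levels of -0.10 to 0.38 in nicotine-sired and -0.40 to 0.04 in saline-sired sons. With all arrays 0 of 9 passed by limma (8 at an unadjusted p under 0.05, 0 by the authors' deposited p-values). Without nicotine-sired 2, 7 of 9 passed by limma. Over all tested probe sets, 13.9% were higher at an unadjusted p under 0.05 and 13.6% passed by the authors' p-values.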
